A study of Bos grunniens x Bos taurus and Bos grunniens with 6 samples.

Results

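The serine proteases with PRSS, TMPRSS, KLK and HTRA symbols were examined in testis tissue of cattle-yak and yak, together with ST14, HPN and CORIN. Members were taken from the deposited table by gene symbol alone, and 67 of its 18918 genes qualified, under 59 different symbols. The cattle-yak were 3 F1 males from Jersey bulls and Gannan yak cows (C1, C2 and C3), the yak were 3 Gannan males (Y1, Y2 and Y3), and all 6 animals were 4 years old, with 1 library of whole testis tissue each. The groups came from different counties, and per the study's methods the testes were removed surgically in cattle-yak but after euthanasia in yak, although the labels name castration for every animal, so origin and sampling cannot be told apart from the hybrid genotype. Reads of both groups were mapped to the yak genome, while the cattle-yak carry a cattle allele of most genes, and an effect of this reference on the level of a member was not tested.

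Levels are FPKM, fragments scaled by gene length and by the depth of the library. The values of a gene stood in whole-number steps, from which the fragments behind them were recovered. The totals were 11834987, 11175100 and 11600013 fragments for C1 to C3, and 13136129, 13104964 and 12991641 for Y1 to Y3. A single fragment on a gene of 1 kb therefore corresponded to 0.0761 to 0.0895 FPKM.

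Serine proteases cut peptide bonds with an active-site serine and are mostly made as inactive precursors that another protease opens. In the mammalian testis, many PRSS genes are transcribed in meiotic and haploid germ cells, and their products reach the acrosome or the sperm surface, where some take part in maturing the proteins with which sperm pass the oviduct and bind the egg. Type II transmembrane proteases such as hepsin stay anchored in the plasma membrane, kallikreins are secreted, and HTRA proteases degrade misfolded or matrix proteins.

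In yak testis the members summed to 1740.2 ± 63.9 FPKM (SD, n = 3), against 367 ± 37.3 (SD, n = 3) in cattle-yak. PRSS37 and the 4 rows named PRSS58 made up 55.9% ± 2.2 of that sum in yak while the figure for cattle-yak was 0.954% ± 0.61 (SD, n = 3 each). In cattle-yak HTRA1, HTRA2, PRSS12 and PRSS50 together gave 49.9% ± 2.73 of the sum, against 2.67% ± 0.235 in yak. The most abundant member was thus a sperm gene, PRSS37, in yak and a secreted protease of the matrix, HTRA1, in cattle-yak. In tissue libraries such as these, fewer cells of a type and less RNA per cell cannot be told apart.

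**Figure D1:**
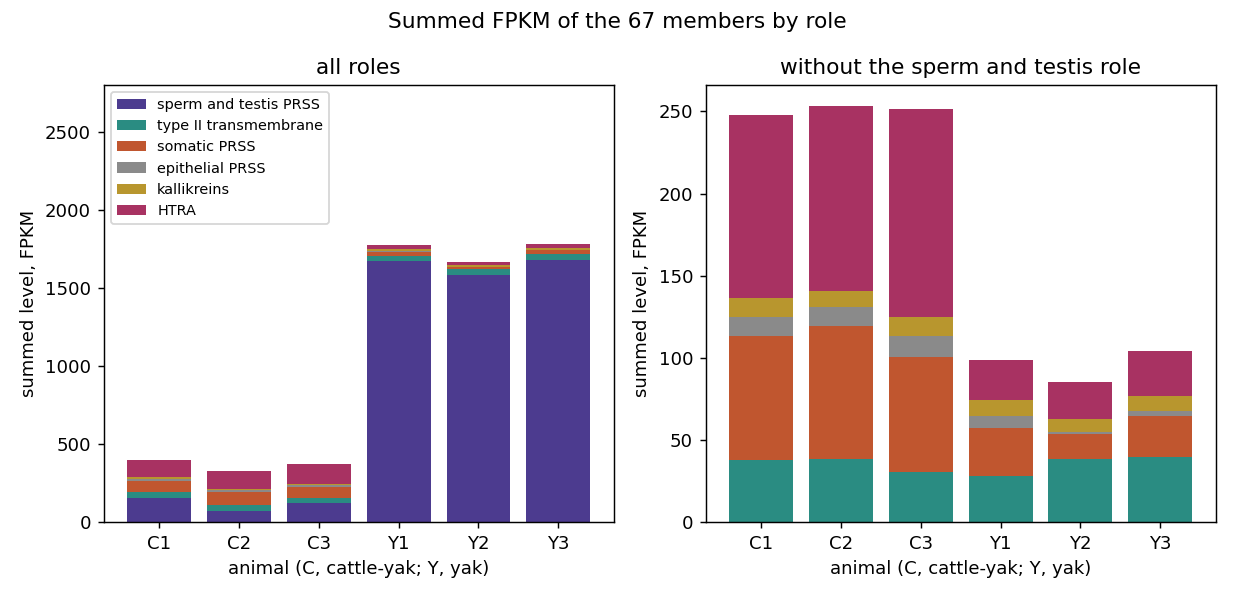
Summed FPKM of the 67 members in each animal, stacked by role, for all 6 roles (left) and without the sperm and testis PRSS genes (right). The sperm and testis role held 1581 to 1678 FPKM in the 3 yak and 73.9 to 154 in the 3 cattle-yak, while the other 5 roles together summed higher in every cattle-yak than in any yak, on FPKM as deposited; with Sertoli-centred scaling 0 members were called higher.

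The groups were compared gene by gene on log2 (FPKM + 1), and a gene was called at an adjusted p under 0.05 with a log2 fold change beyond 1. The added 1 shrinks the fold change of a gene that is near 0 in a group, so ratios of means are given for some members. Of the 67 members, 45 had a mean of at least 0.5 FPKM over the animals and were tested. Among them 10 were called higher in cattle-yak and 23 lower, and 12 were not called. Calls thus covered 73.3% of the tested members, against 54.2% of the 15042 genes tested. Lower calls made up 51.1% of the members and 20.8% of all genes, and higher calls 22.2% of the members and 33.4% of all genes. The groups did not overlap in 37 of the 45 members, or 82.2%, which is near the 84.1% over all genes. Without the minimum level all 67 members were fitted, and the counts were again 10 and 23.

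The choice of scale weighs on these directions. The median log2 fold change of all genes was 0.51, so levels of most genes were somewhat higher in cattle-yak, and the 10 higher members lay 0.70 to 2.38 above that median. With median-of-ratios scaling, where the median of all genes was 0.01, all 23 lower members remained lower and 8 of the 10 higher members remained higher. The split over all genes turned with it, from 5023 higher and 3136 lower to 2655 higher and 4173 lower. When libraries were scaled to 9 Sertoli cell genes, the median of all genes moved to −1.72, and limma called 36 members lower and 0 higher, beside 28 higher and 11119 lower genes overall. The 0 depends on the fold change threshold, since 2 members, HTRA1 at 0.66 and HPN at 0.55, were above 0 at an unadjusted p under 0.05 (adjusted p = 2.0e-03 and 6.0e-03). PRSS12 was above 0 as well, at 0.17 (adjusted p = 0.187), and the 23 lower members kept their call.

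**Figure D2:**
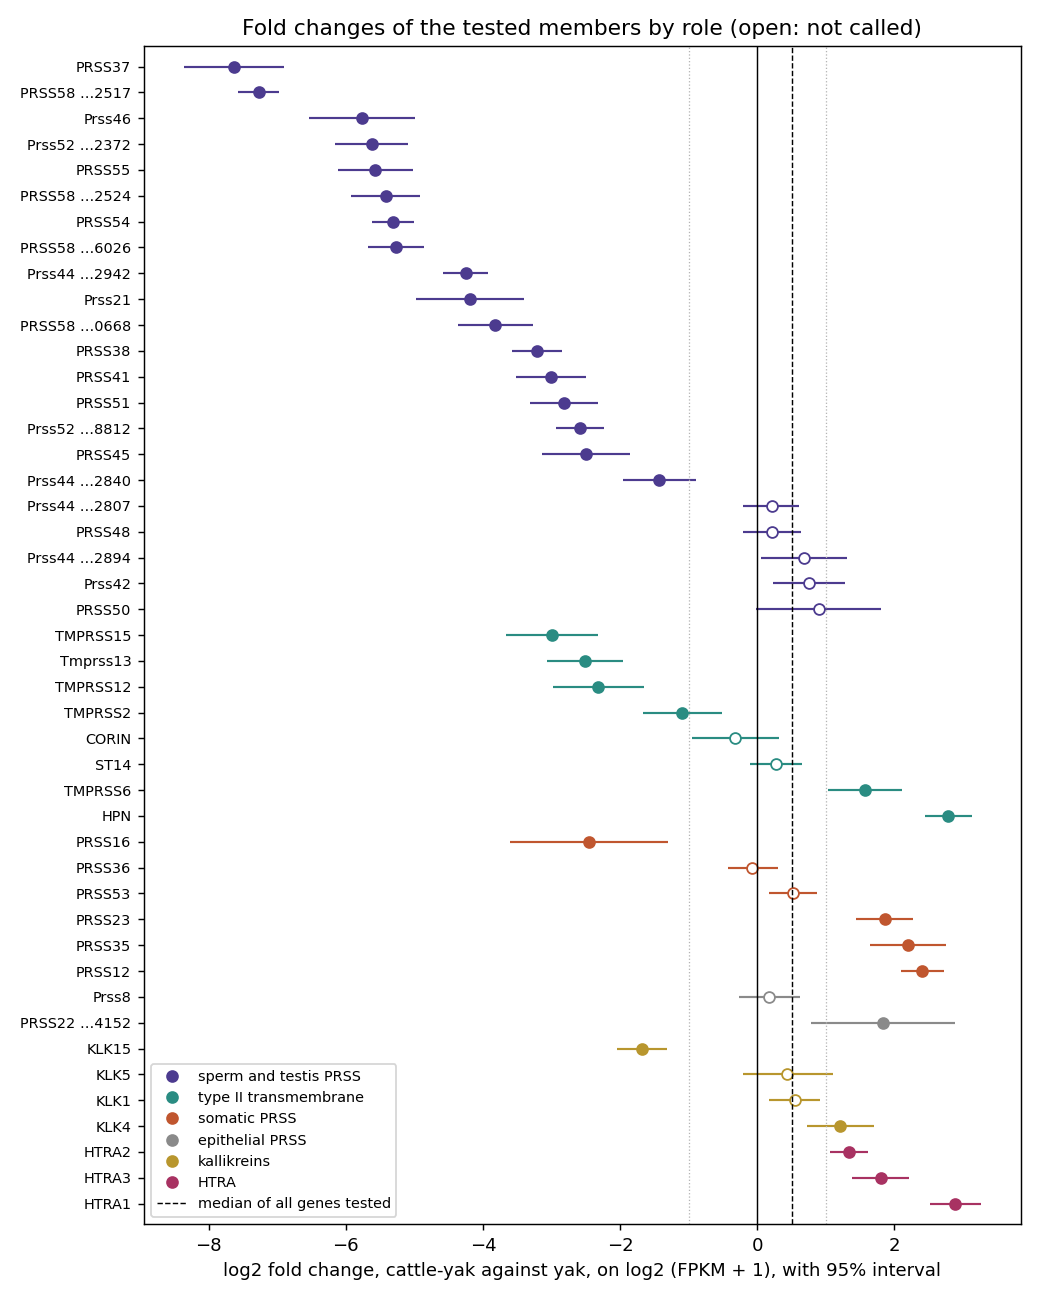
Log2 fold change of the 45 tested members, cattle-yak against yak, by role, with 95% intervals; filled points were called, open points were not, and the dashed line is the median of all genes tested. Of the 22 sperm and testis PRSS genes 17 were called lower and 0 higher, whereas all 3 tested HTRA genes were called higher, against 2 with median-of-ratios scaling and 0 with Sertoli-centred scaling.

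Marker genes of germ cells and somatic cells were compared between the groups in the same way. Genes of elongating spermatids were lower in 4 of 4, with summed FPKM of 9349, 7939 and 9701 in Y1, Y2 and Y3 against 65.8, 24.6 and 12.8 in C1, C2 and C3, most of it TNP1. Round spermatid genes were lower in 3 of 3, and their sum was 779, 762 and 834 in yak against 28.9, 14.0 and 4.87 in C1, C2 and C3, with TSSK2 the most abundant in yak and ACR in cattle-yak. Both directions were kept under every scaling. None of these 7 genes was at 0 in any animal, and each was highest in C1 and lowest in C3 among the cattle-yak. The study's histology found no round spermatids or sperm in cattle-yak tubules, and the source of these low values was not tested.

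Of 8 spermatocyte genes 1 was higher (SYCP3, at 1.10, but 0.49 with median-of-ratios and −1.14 with Sertoli-centred scaling), 2 were lower (PIWIL1 and CCNA1) and 5 were not called. With median-of-ratios scaling 0 of the 8 genes were higher and 2 lower, and with Sertoli-centred scaling 0 were higher and 8 lower. The 8 genes summed to 393, 394 and 381 FPKM in Y1 to Y3 and to 297, 182 and 279 in C1, C2 and C3. PIWIL1 led in yak and SYCP3 in cattle-yak. On FPKM as deposited, the lower sum came from PIWIL1 and CCNA1. The other 6 genes summed to 158, 155 and 184 FPKM in the yak and 262, 161 and 267 in the cattle-yak. This depends on the scale, since only SYCP3 of these 6 stayed above 0 with median-of-ratios scaling. There SYCP1 was at −0.36, DMC1 at −0.89, SPO11 at −0.51, MLH3 at −0.97 and HORMAD1 at −0.07. The spermatogonial list was higher in 6 of 7 genes, with sums of 176, 193 and 243 FPKM in yak and of 728, 821 and 931 in cattle-yak, led by DMRT1. DMRT1 alone averaged 125 of a mean sum of 204 FPKM in yak and 482 of 827 in cattle-yak. In the study's histology, spermatogonia and primary spermatocytes were fewer in cattle-yak than in yak. How these sums relate to cell numbers was not tested.

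The Sertoli, Leydig and myoid cell lists were higher as well on FPKM as deposited. Other somatic lists were not, since endothelial, macrophage and mast cell genes were mixed. No tested neutrophil, blood, rete testis or epididymal gene was called higher. Sertoli cell genes were called higher in 9 of 9, summing to 458, 433 and 436 FPKM in yak and 1917, 1768 and 1955 in cattle-yak, with CLU the most abundant. The sums of Leydig cell genes, led by INSL3 and higher in 6 of 6, were 4864, 3339.8 and 3526 FPKM in yak and 12423, 11846 and 10434 in cattle-yak. Myoid cell genes, led by ACTA2, were also higher in 6 of 6, from 147, 119 and 124 FPKM in yak to 584, 782 and 595 in cattle-yak. With median-of-ratios scaling 8 of 9 Sertoli, 5 of 6 Leydig, 6 of 6 myoid and 5 of 7 spermatogonial genes were called higher, and INSL3, at 1.56 on the main scale, fell to 0.94 and was not called. With Sertoli-centred scaling the median of the spermatogonial, Leydig and myoid lists fell below 0, to −0.28, −0.25 and −0.23, and 0 of their genes were called higher. The part of these cell types in the levels of the proteases was not tested.

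PRSS37 and PRSS55 are needed in mice for ADAM3 to reach the sperm surface. PRSS37, an acrosomal protein whose active site lacks the catalytic residues, was at 699, 594 and 641 FPKM in Y1, Y2 and Y3 and at 4.64, 1.96 and 1.05 in C1, C2 and C3. The yak values lay close together and far above every cattle-yak value, and it ranked 92 among all genes by its yak mean and 11760 by its cattle-yak mean. This was 253-fold lower on the group means and −7.63 on the log2 scale (SE 0.317, adjusted p = 3.5e-07), and the ratio ranged from 195 without C3 to 427 without C1. PRSS55, anchored by a lipid to the sperm membrane, was at 71.1, 59.6 and 69.6 FPKM in the yak and at 1.09, 0.267 and 0.0856 in C1, C2 and C3. Again the groups were far apart and C1 held the highest cattle-yak value, from 13 fragments, while C3 had 1. The log2 fold change was −5.57 (SE 0.238, adjusted p = 3.9e-07), and the ratio of means of 139 was 379 without C1 and 98.3 without C3.

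PRSS54, a testis gene of the same family, was at 41.4, 39.5 and 44.2 FPKM in Y1 to Y3 and at 0.151, 0.0802 and 0 in C1 to C3. Over the cattle-yak this rests on 3 fragments, against 1825 over the yak, a ratio of 537 with an exact 95% interval of 183 to 2605 for counting error alone. The ratio was 1039.9 without C1 and 360.0 without C3, which had no fragment. Its log2 fold change was −5.31 (adjusted p = 6.5e-08).

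Prss46, PRSS45, Prss44 and Prss42 belong to the Tessp group of testis-specific serine proteases. Prss46 was at 126, 112 and 124 FPKM in the yak and at 3.08, 0.864 and 0.462 in C1, C2 and C3. The groups did not overlap, C1 stood above the other cattle-yak, and the log2 fold change was −5.76 (SE 0.334, adjusted p = 1.5e-06). PRSS45 was at 72.4, 85.5 and 74.4 FPKM in the yak and kept 21.8, 10.1 and 9.37 in C1, C2 and C3. It was the only lower-called member among the 10 most abundant in cattle-yak, with a ratio of means of 5.62 (4.84 to 7.93 with each animal left out) and a log2 fold change of −2.50 (SE 0.277, adjusted p = 5.0e-05).

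Prss21 encodes testisin, a lipid-anchored protease of spermatocytes and spermatids, and was at 62.3, 61.2 and 84.5 FPKM in the yak and at 4.68, 1.11 and 3.64 in the cattle-yak. C2 was lowest and all cattle-yak lay below every yak, at a log2 fold change of −4.19 (SE 0.341, adjusted p = 8.7e-06). PRSS41, a testis serine protease close to testisin, was at 16.1, 14.1 and 21.2 FPKM in the yak against 0.907, 0.961 and 1.95 in the cattle-yak. Here C3 was the highest cattle-yak, and the log2 fold change was −3.01 (SE 0.222, adjusted p = 5.1e-06). PRSS38 was at 62.2, 62.3 and 68.4 FPKM in the yak and at 8.04, 5.16 and 5.28 in the cattle-yak. Its yak values differed by a ratio of 1.1 at most, the groups were apart, and the log2 fold change was −3.21 (SE 0.162, adjusted p = 7.6e-07).

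PRSS51, outside the genes given for every animal, averaged 7.14 FPKM in yak and 0.143 in cattle-yak (log2 fold change −2.81, adjusted p = 6.2e-06). The cattle-yak mean rests on 4 fragments, with 3, 0 and 1 in C1, C2 and C3.

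**Figure D3:**
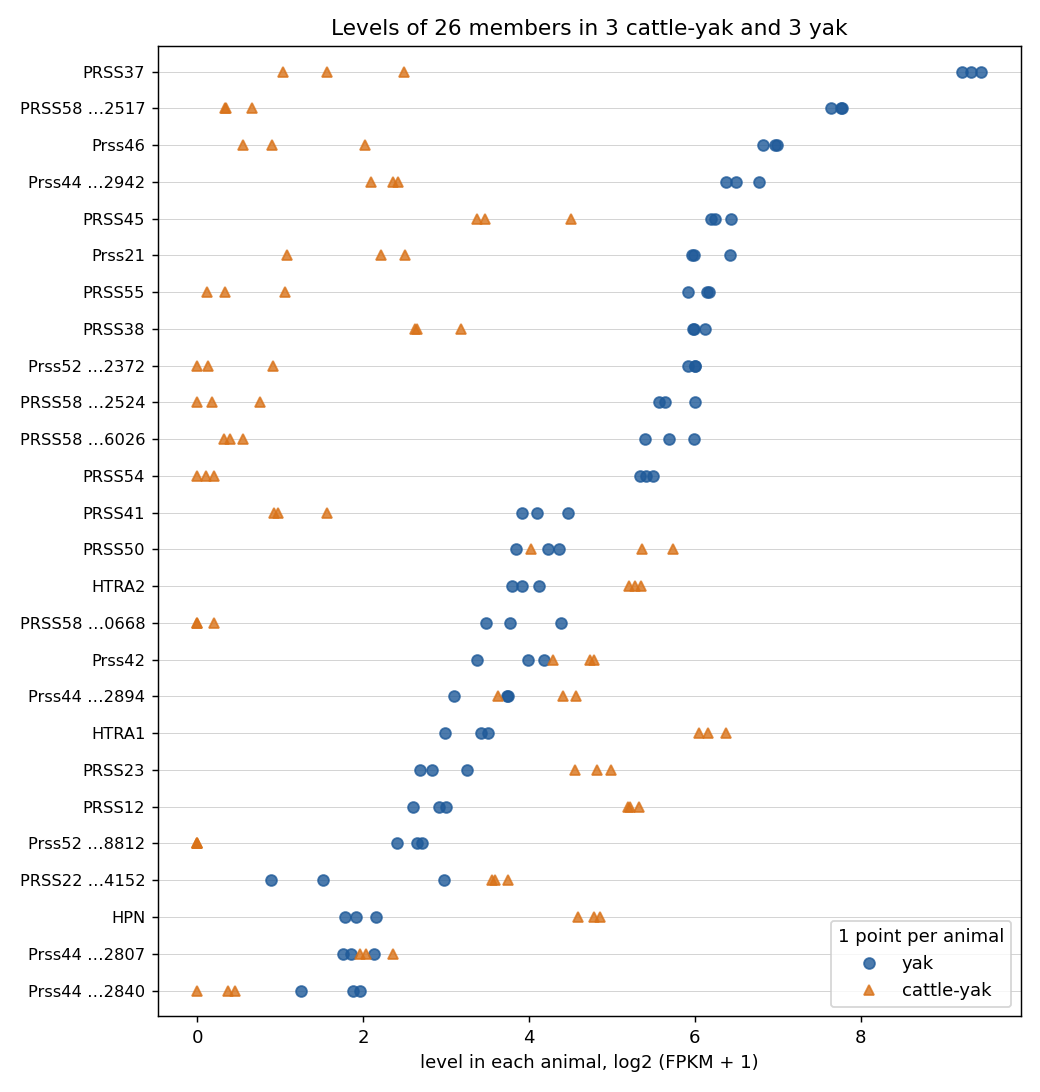
Levels of 26 tested members in each animal on log2 (FPKM + 1), sorted by their mean in yak, with circles for yak and triangles for cattle-yak; symbols on several rows carry the end of the gene identifier. PRSS37 lay at 594 to 699 FPKM in yak and 1.05 to 4.64 in cattle-yak, while HTRA1, PRSS23, PRSS12 and HPN lay higher in every cattle-yak than in any yak, which for PRSS23 turns to −0.37 with Sertoli-centred scaling.

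Some symbols stood on several rows, and reads shared between near-identical copies could be split among them or lost from them, so the level of each copy is uncertain. PRSS58, a trypsin-like gene, stood on 4 rows, which summed to 332, 337 and 317 FPKM in the yak and 1.89, 0.653 and 0.581 in C1, C2 and C3. ENSBGRG00000002517 was the most abundant, with 198, 215 and 217 FPKM in the yak and 0.58, 0.273 and 0.263 in the cattle-yak. The yak values lay close together and the cattle-yak values rested on 17 fragments in all, at a log2 fold change of −7.27 (SE 0.128, adjusted p = 5.7e-08). ENSBGRG00000002524 was at 63.1, 48.9 and 46.3 FPKM in the yak and at 0.69, 0.133 and 0 in the cattle-yak. ENSBGRG00000016026 was at 50.5, 62.7 and 41.1 FPKM in the yak and at 0.468, 0.248 and 0.318 in the cattle-yak. Among the yak Y1 was highest for the former and Y2 for the latter, and the log2 fold changes were −5.42 and −5.27 (adjusted p = 3.4e-07 and 1.5e-07). ENSBGRG00000000668 was at 19.9, 10.2 and 12.7 FPKM in the yak and at 0.149, 0 and 0 in the cattle-yak. It was called lower like the other copies (adjusted p = 2.0e-06), from 3 fragments in cattle-yak and 956 in yak, a ratio of 281 with an exact 95% interval of 95.9 to 1366. All 3 of these fragments came from C1, so without C1 no ratio exists, and without C2 or C3 it was 192.

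Prss52 stood on 2 rows. ENSBGRG00000002372 was at 59.5, 62.8 and 63.0 FPKM in the yak and at 0.879, 0.0931 and 0 in the cattle-yak. Of its 11 cattle-yak fragments 10 came from C1, and the log2 fold change was −5.62 (SE 0.233, adjusted p = 3.5e-07). ENSBGRG00000008812, a short model of 302 bases, was at 5.29, 5.56 and 4.33 FPKM in the yak and was listed at 0 in every cattle-yak. Against a limit of 3 fragments over the cattle-yak, equal to 0.287 FPKM, it was at least 17.6-fold lower (adjusted p = 1.5e-06).

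The 4 rows named Prss44 went different ways. ENSBGRG00000012942 was at 82.1, 88.9 and 108 FPKM in the yak and at 4.12, 3.27 and 4.37 in the cattle-yak. All animals of a group were close to each other, and the log2 fold change was −4.25 (SE 0.143, adjusted p = 1.5e-07). ENSBGRG00000012894 was instead at 7.54, 12.4 and 12.3 FPKM in the yak and at 20.2, 11.4 and 22.6 in C1, C2 and C3. C1 and C3 lay above every yak and C2 among them, at a log2 fold change of 0.68 (SE 0.273, adjusted p = 0.0467) that was not called.

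ENSBGRG00000012807 was at 2.37, 3.39 and 2.61 FPKM in the yak and at 3.11, 2.91 and 4.13 in the cattle-yak. The groups overlapped and the log2 fold change of 0.21 (SE 0.176, adjusted p = 0.297) turned to −0.26 with median-of-ratios scaling. ENSBGRG00000012840 was at 2.69, 2.89 and 1.39 FPKM in the yak and at 0.291, 0 and 0.371 in the cattle-yak. It was called lower, at −1.43 (SE 0.232, adjusted p = 5.1e-04). In yak ENSBGRG00000012942 gave most of the level under this symbol, and in cattle-yak ENSBGRG00000012894 did.

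**Figure D4:**
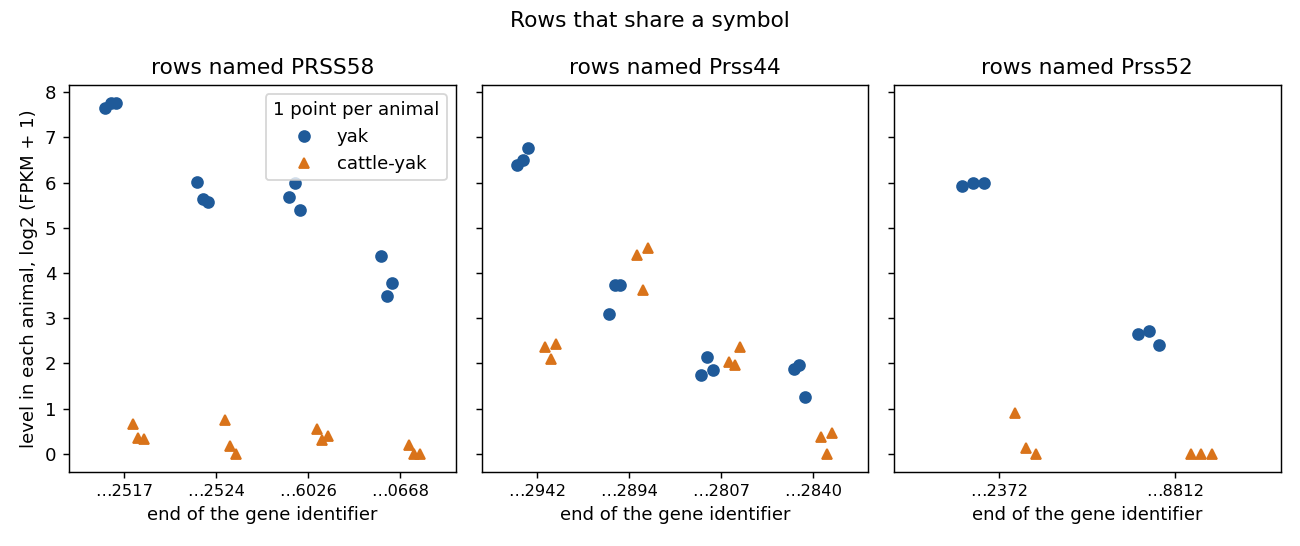
Level of each row named PRSS58, Prss44 or Prss52 in each animal on log2 (FPKM + 1), ordered by the yak mean, with circles for yak and triangles for cattle-yak. Every PRSS58 and Prss52 row lay lower in all cattle-yak, while of the Prss44 rows ENSBGRG00000012942 and ENSBGRG00000012840 lay lower and the groups overlapped in the other 2.

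PRSS50, a cancer-testis gene with threonine in place of the catalytic serine, was at 13.3, 17.7 and 19.5 FPKM in the yak and at 52.3, 15.3 and 40.0 in C1, C2 and C3. C1 and C3 stood above every yak and C2 lay within their range, so the groups overlapped. Its log2 fold change was 0.90 (SE 0.394, adjusted p = 0.0617), and without C2 it was 1.41 and called (adjusted p = 6.2e-04; 0.0888 to 0.177 without any other animal). Prss42, which has been studied in mouse meiosis, was at 9.32, 17.1 and 14.9 FPKM in the yak and at 25.6, 18.5 and 26.6 in the cattle-yak. C2 was again the lowest cattle-yak but stood above every yak, and the log2 fold change of 0.76 (SE 0.229, adjusted p = 0.0145) did not reach 1. With median-of-ratios scaling PRSS50, Prss42 and Prss44 ENSBGRG00000012894 were at 0.31, 0.17 and 0.10, near the median of all genes. Only Sertoli-centred scaling put them below 0, at −1.33, −1.48 and −1.56, where each was called lower, as were all 22 sperm and testis PRSS genes.

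The cattle-yak did not share an order across members. Relative to the mean of the 3 cattle-yak, PRSS50 was at 1.46, 0.427 and 1.12 in C1, C2 and C3. C2 was also the lowest for 5 of the 8 spermatocyte genes, among them SYCP3 (1.09, 0.653 and 1.25) and DMC1 (1.23, 0.536 and 1.23), whereas MLH3, PIWIL1 and CCNA1 were lowest in C3. PRSS37 was at 1.82, 0.770 and 0.412 and Prss46 at 2.10, 0.588 and 0.315, with C1 highest and C3 lowest, and the spermatid gene TNP1 was at 1.96, 0.654 and 0.383. Prss21 was instead lowest in C2, at 1.49, 0.353 and 1.16, as were PRSS38 and Prss44 ENSBGRG00000012942, and PRSS41 was highest in C3. Of the 20 lower-called members with a single lowest animal, 9 were lowest in C3, 8 in C2 and 3 in C1, and of the 12 not called 1, 5 and 6 were. Of the 22 lower-called members with any cattle-yak fragment, C1 held the highest value in 16, or 72.7%, against 65.4% of all lower-called genes. These are orders among 3 animals and were not tested.

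**Figure D5:**
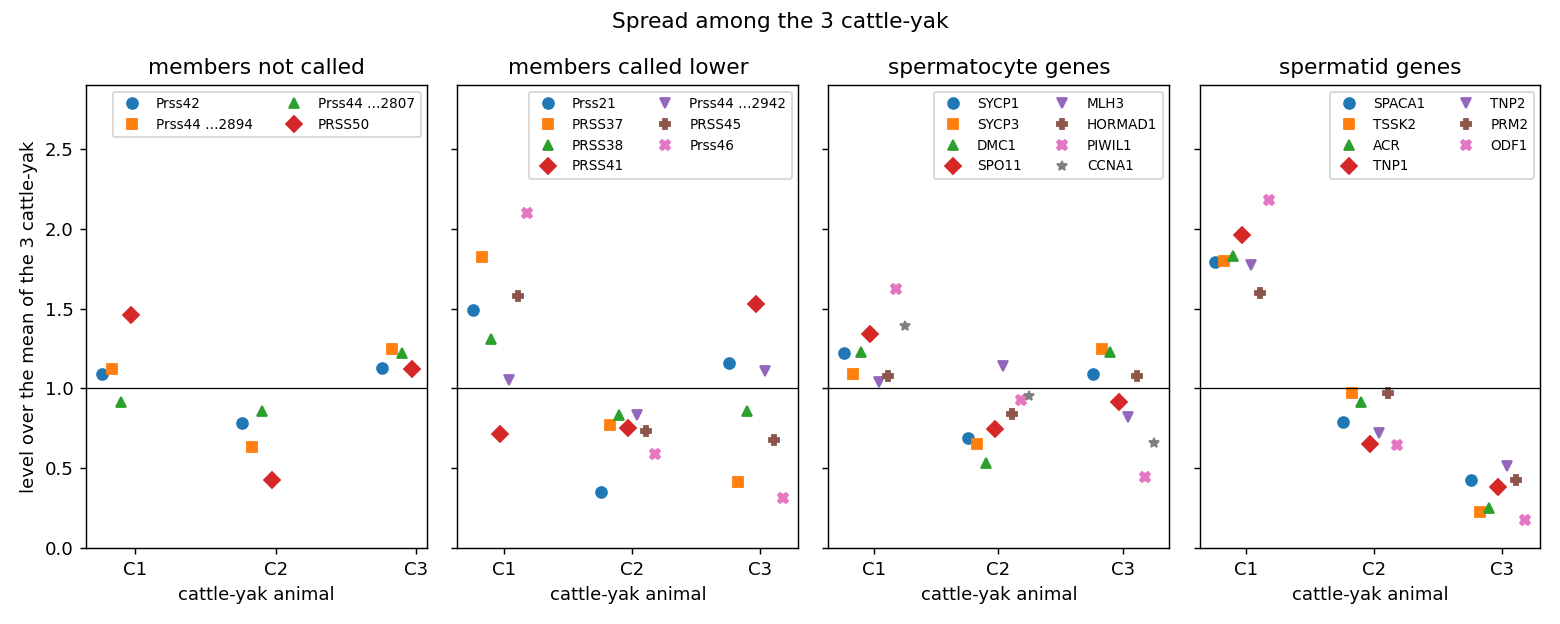
Level in each cattle-yak over the mean of the 3 cattle-yak, for given members not called, for lower-called given members with a cattle-yak mean of at least 1 FPKM, and for the spermatocyte and spermatid lists. PRSS50, Prss42 and Prss44 were lowest in C2, at 0.427 to 0.861, lower-called members differed in their lowest animal, and every spermatid gene was highest in C1 and lowest in C3.

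Over the sperm and testis role, 17 of 22 genes were called lower, 0 higher and 5 were not called, and among these PRSS48 averaged 0.793 FPKM in yak and 1.08 in cattle-yak (0.22, but −0.07 with median-of-ratios scaling). The median log2 fold change of the role was −3.51, or −3.98 with the Prss52 row at 0 set to its limit, against 0.51 over all genes, and it stayed below 0 under each scaling.

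Partners of PRSS37 and PRSS55 in the maturation of ADAM3 were mostly lower as well. Of 15 tested genes 10 were lower, 2 higher (0 with median-of-ratios scaling) and 3 were not called, at a median log2 fold change of −3.59. CMTM2 was the most abundant in yak at 1759, 1753 and 1878 FPKM and was at 99.2, 42.8 and 12.3 in C1, C2 and C3. CLGN, the calmegin chaperone that folds ADAM proteins in the endoplasmic reticulum, was at 1464, 1604 and 1391 FPKM in the yak and still at 340.3, 257 and 213 in the cattle-yak. Both were lower in every cattle-yak, at −5.53 and −2.48 (adjusted p = 4.7e-05 and 3.2e-06). PDIA3, a disulfide isomerase found in most cells, was the most abundant of the list in cattle-yak, at 534, 496 and 490.1 FPKM against 442, 467 and 395 in the yak. Its groups did not overlap but its log2 fold change of 0.22 (adjusted p = 0.0655) was not called, and it turned to −0.39 with median-of-ratios scaling.

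Acrosomal proteases and their matrix proteins were lower in 10 of 10 tested genes, at a median log2 fold change of −4.91, under every scaling. ACR, which encodes acrosin, the main protease of the acrosome, was at 233, 258 and 240.3 FPKM in the yak and at 14.9, 7.42 and 2.05 in C1, C2 and C3. ACRBP, which holds the acrosin precursor inactive, was at 209.8, 209 and 185 FPKM in the yak and at 11.2, 5.66 and 3.92 in the cattle-yak. Both showed the order C1, C2, C3 seen for PRSS37, at −5.04 and −4.78 (adjusted p = 2.6e-05 and 1.8e-06). ZPBP and ZPBP2, zona-binding proteins of the acrosome, kept the highest levels of this list in cattle-yak. ZPBP was at 142, 179 and 146 FPKM in the yak and 35.9, 23.6 and 17.4 in the cattle-yak. ZPBP2 was at 96.0, 115 and 104 FPKM in the yak and 20.7, 18.8 and 18.6 in the cattle-yak, and both were called lower.

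Of the 17 type II transmembrane proteases 8 were tested, with 2 higher, 4 lower and 2 not called, and their summed FPKM did not separate the groups. HPN encodes hepsin, which activates the precursor of hepatocyte growth factor, and was at 2.78, 2.45 and 3.45 FPKM in the yak and at 27.9, 26.6 and 23.0 in the cattle-yak. Its values were tight in both groups and well apart, a ratio of means of 8.94 that was the largest among members higher in cattle-yak. The log2 fold change was 2.79 (SE 0.147, adjusted p = 9.4e-07), 2.26 with median-of-ratios scaling and 0.55 with Sertoli-centred scaling. TMPRSS6, the protease that cleaves hemojuvelin in the liver, averaged 3.86 FPKM in cattle-yak and 0.609 in yak (log2 fold change 1.57, adjusted p = 3.0e-04; −0.66 with Sertoli-centred scaling).

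Among the 4 lower members were the 3 most abundant of this role in yak. TMPRSS12, needed for sperm motility in mice, averaged 11.0 FPKM in yak and 1.37 in cattle-yak (−2.32, adjusted p = 1.0e-04). TMPRSS15, the enteropeptidase that activates trypsinogen in the gut, averaged 9.79 and 0.399 FPKM (−2.99, adjusted p = 2.4e-05). Most of its cattle-yak mean came from C1, with 1.02, 0.175 and 0 FPKM in C1, C2 and C3, from 37, 6 and 0 fragments. Without C1 its log2 fold change was −3.29. Tmprss13 averaged 4.99 FPKM in yak and had 1 fragment over the cattle-yak, in C1, against 455, a ratio of 401 with an exact 95% interval of 71.7 to 15888. TMPRSS2, an androgen-regulated protease of the prostate, had a yak mean of 1.27 FPKM and 2 fragments over the cattle-yak, 1 each in C2 and C3, against 123, a ratio of 54.3 with an exact 95% interval of 14.7 to 453. Its log2 fold change of −1.09 (adjusted p = 3.6e-03) was no longer past 1 without Y2 or Y3, at −0.97 and −0.92. CORIN, which activates the natriuretic peptide precursor, and ST14, matriptase of epithelia, were not called, with means of 2.73 and 0.75 FPKM in cattle-yak and 3.45 and 0.448 in yak. The 9 untested genes had group means of at most 0.572 FPKM.

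Of the PRSS genes known mainly from somatic tissues 6 of 9 were tested, with 3 higher, 1 lower and 2 not called. PRSS12 encodes neurotrypsin, which cleaves agrin, and was at 7.0, 5.06 and 6.52 FPKM in the yak and at 35.6, 39.2 and 36.1 in the cattle-yak. PRSS23, a secreted protease also known from the ovary, was at 8.50, 6.09 and 5.46 FPKM in the yak and at 30.8, 27.2 and 22.4 in the cattle-yak. Both stood higher in each cattle-yak than in any yak. The log2 fold changes were 2.41 for PRSS12 (SE 0.135, adjusted p = 1.3e-06) and 1.86 for PRSS23 (SE 0.182, adjusted p = 2.4e-05), and with Sertoli-centred scaling 0.17 and −0.37. PRSS35, a secreted member known from the ovarian follicle, averaged 8.25 FPKM in cattle-yak and 1.01 in yak (2.20, adjusted p = 5.0e-05; −0.04 with Sertoli-centred scaling).

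PRSS16, a protease of thymic cortex, went the other way, with a mean of 7.21 FPKM in yak and 0.251 in cattle-yak (−2.45, adjusted p = 1.9e-03). Its yak values were uneven, at 9.61 in Y1, 1.67 in Y2 and 10.3 in Y3, and Y2 still lay above all cattle-yak. The log2 fold change was −3.13 without Y2 (adjusted p = 1.0e-05) and −2.09 without Y3 (adjusted p = 9.1e-03). PRSS53 averaged 1.57 FPKM in cattle-yak and 0.794 in yak (0.53, adjusted p = 0.0123, not called), and PRSS36 averaged 0.593 and 0.664. With voom on the recovered fragments PRSS53 was called higher. It was at 0.2 with median-of-ratios scaling and at −1.71 with Sertoli-centred scaling. The untested Prss27, PRSS33 and PRSS56 averaged 0.101 to 0.616 FPKM in either group.

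PRSS22 and Prss8 are known from epithelia, and PRSS22 stood on 2 rows. PRSS22 ENSBGRG00000014152, a tryptase of airway epithelium, was at 6.84, 0.848 and 1.87 FPKM in the yak and at 11.0, 10.7 and 12.4 in the cattle-yak. The cattle-yak were even and the yak were not, with Y1 far above Y2 and Y3. The log2 fold change was 1.83 (SE 0.456, adjusted p = 5.5e-03), 1.34 with median-of-ratios scaling and −0.40 with Sertoli-centred scaling. With each animal left out it ranged from 1.38 without Y2 (adjusted p = 0.0152) to 2.42 without Y1 (adjusted p = 7.5e-05). PRSS22 ENSBGRG00000014500 was not tested, at 0, 0.185 and 0.187 FPKM in the yak and listed at 0 in all cattle-yak. Prss8, prostasin, an activator of the epithelial sodium channel, averaged 0.456 FPKM in yak and 0.639 in cattle-yak and was not called.

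Kallikreins were low in both groups, with summed levels of 9.05 ± 0.874 FPKM for yak and 10.8 ± 1.24 for cattle-yak (SD, n = 3 each). Of 12 genes 4 were tested, with 1 higher, 1 lower and 2 not called, and the 8 untested ones had group means of at most 0.726 FPKM. With median-of-ratios scaling 0 of the 4 were higher and 1 lower, and with Sertoli-centred scaling 0 were higher and 4 lower. KLK1, the tissue kallikrein that releases kinins, gave the largest share, with means of 3.48 FPKM in yak and 5.54 in cattle-yak (0.55, adjusted p = 0.0127, not called). KLK4, known from enamel and prostate, averaged 0.779 FPKM in yak and 3.20 in cattle-yak. Its log2 fold change of 1.21 (adjusted p = 7.8e-04) was 0.85 with median-of-ratios scaling and −1.02 with Sertoli-centred scaling. KLK15 averaged 2.71 FPKM in yak and 0.159 in cattle-yak (−1.68, adjusted p = 2.1e-05), and KLK5 averaged 0.430 and 0.998 without a call. For KLK5 C3 stood above the other cattle-yak, at 0.475, 0.647 and 1.87 FPKM in C1, C2 and C3. Its log2 fold change of 0.44 fell to 0.15 without C3.

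The HTRA genes were higher in cattle-yak in 3 of 3 tested, under the main scale and in direction also with median-of-ratios scaling, while with Sertoli-centred scaling HTRA2 and HTRA3 were below 0. HTRA1, a secreted protease of the extracellular matrix, was at 10.4, 6.93 and 9.69 FPKM in the yak and at 65.4, 70.5 and 82.1 in the cattle-yak. The groups were well apart, at a log2 fold change of 2.89 (SE 0.160, adjusted p = 1.2e-06), which was 0.66 with Sertoli-centred scaling. On the main scale this was the largest of the members higher in cattle-yak. HPN was larger with a pseudocount of 0.1, at 3.12 against 3.01, and with voom, at 3.16 against 3.03. HTRA2, a protease of the mitochondrial intermembrane space that binds XIAP when released, was at 12.9, 14.1 and 16.4 FPKM in the yak and at 37.9, 36.0 and 39.7 in the cattle-yak. It was the only HTRA gene among the 15 most abundant members in yak, and its log2 fold change of 1.34 (SE 0.118, adjusted p = 1.3e-05) was 0.74 with median-of-ratios scaling, where it was not called, and −0.90 with Sertoli-centred scaling. HTRA3 averaged 6.36 FPKM in cattle-yak and 1.12 in yak (1.80, adjusted p = 3.0e-05), and HTRA4 was near 0 in both groups.

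Inhibitors of these proteases were mixed, with 4 higher, 3 lower and 3 not called of 10 tested, at a median log2 fold change of −0.64. With median-of-ratios scaling 4 were higher and 5 lower, and with Sertoli-centred scaling 0 and 6. Among the lower genes SERPINA1 (−1.58, adjusted p = 0.0354) was uneven in yak, with Y3 far above Y1 and Y2. It was at 17.6, 15.5 and 85.4 FPKM in Y1, Y2 and Y3 and at 11.1, 11.3 and 5.66 in C1, C2 and C3. SERPINA5, the protein C inhibitor, which also blocks acrosin, was at 105, 88.1 and 115 FPKM in the yak and 819, 736 and 761 in the cattle-yak. EPPIN, an inhibitor found on sperm and in Sertoli cells, was at 101, 90.3 and 116 FPKM in the yak and 694, 396 and 499.5 in the cattle-yak. Both lay higher in each cattle-yak, at 2.91 and 2.33 (adjusted p = 3.0e-07 and 1.1e-05). With Sertoli-centred scaling they fell to 0.67 and 0.09, and neither was called higher. SPINT2, a Kunitz inhibitor of hepsin and matriptase, was the most abundant in yak, at 245, 261 and 284 FPKM against 189.5, 162 and 175 in the cattle-yak. SERPINB6, an intracellular serpin on 4 rows, was at 155, 168 and 161 FPKM in the yak and 119.7, 83.2 and 98.1 in the cattle-yak for its most abundant row. The groups were apart for both, but −0.58 and −0.69 did not pass 1, whereas with median-of-ratios scaling they reached −1.20 and −1.31.

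Substrates and receptors were higher in 10 of 18 tested genes and lower in 4, against 6 and 4 with median-of-ratios and 0 and 9 with Sertoli-centred scaling. Their median log2 fold change was 1.25, 0.74 and −0.98 in that order. BGN, the matrix proteoglycan biglycan, which HTRA1 cleaves, was at 23.8, 23.4 and 25.0 FPKM in the yak and 129.6, 156 and 136 in the cattle-yak. EPCAM, an epithelial adhesion protein cleaved by matriptase, was at 135, 161 and 134 FPKM in the yak and 149, 94.3 and 114 in the cattle-yak. BGN was higher, at 2.49 (adjusted p = 3.3e-07; 0.26 with Sertoli-centred scaling), and EPCAM overlapped between the groups (−0.29, adjusted p = 0.144).

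The table's own annotation gave the term serine-type endopeptidase activity to 56 of the 67 members, and no term at all to 9. A further 91 genes carried that term, of which 56 were tested, 20 were higher and 11 lower, at a median log2 fold change of 0.18. Their summed level was 1252 ± 21.3 FPKM for yak and 1158 ± 66.9 for cattle-yak (SD, n = 3 each), so the summed level of the members changed by a larger ratio than that of the other annotated serine proteases, a difference that was not tested. The term spermatogenesis stood on 6 members, namely Prss21, Prss42 and the 4 Prss44 rows, of which 3 were called lower and 3 were not called.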

How the data were processed

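Testis RNA of 3 cattle-yak and 3 yak was sequenced with a strand-specific kit, 1 library per animal. Per the study's methods and the submitters' processing notes, the authors trimmed reads with Trimmomatic, aligned them by HISAT2 against the yak build LU_Bosgru_v3.0, counted with HTSeq, computed values with Cufflinks and tested with DESeq. The deposited values are FPKM per gene and animal, not scaled between libraries, and columns were matched to animals by title. Fragment numbers came out whole for the 17973 genes that had 2 or more values above 0, to within 0.01 fragments, and 98.9% of gene lengths under 3000 bases came out within 0.02 of a whole number. On simulated counts at the same lengths and depths, the recovery returned every count of 97.1% of 17658 genes, so the fragments of a single gene can be wrong. Intervals and limits from fragments cover counting error only.

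Genes with a mean of at least 0.5 FPKM were compared after log2 (FPKM + 1) by lmFit and eBayes with trend, two-sided, from limma 3.58.1 under R 4.3.3, and p-values were Benjamini-Hochberg adjusted over all 15042 genes. When tested on simulated data for cattle-yak against yak, with 200 of 15042 genes changed 4-fold, the calls held 199 of these and also 1 gene without change. The changed genes were drawn only from genes with many fragments, and their direction was random. The simulation thus does not cover members near 0, nor a comparison where 54.2% of genes are called and most levels shift 1 way. An exact permutation test of 3 against 3 animals cannot go below p = 0.1 and was not used. The members, roles, marker lists and partner lists were chosen with earlier results of these data known. Values in every animal are given for the 15 tested members highest in yak, the 10 highest in cattle-yak and all that share a symbol, and for the 2 highest genes of each partner list in either group. PRSS16, TMPRSS15, KLK5 and SERPINA1 were given by animal, and other list genes were named, after their values were seen. Of a symbol with several rows, lists used the most abundant.

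Alternatives were a pseudocount of 0.1, no minimum, a minimum of 2 FPKM, median-of-ratios and Sertoli-centred scaling, no trend, no fold change threshold, voom on the recovered fragments, and leaving out every animal once. Python 3.11.15, numpy 2.4.6, pandas 2.3.3 and matplotlib 3.10.9 were used. Protein and promoter sequences, and listed symbols absent from the matched rows (such as PRM1, HSD3B1 and SPINT1), were not analysed here.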

Additional observations from a re-analysis of the deposited data

How the results depend on the processing

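Against 10 higher and 23 lower members, the alternatives gave 8 to 14 higher and 20 to 23 lower ones, except Sertoli-centred scaling with 0 higher and 36 lower, with 28 higher and 11119 lower genes overall. Higher genes numbered 5023, but 2655 with median-of-ratios scaling and 7916 without a fold change threshold. With each animal left out in turn, higher members ranged from 10 to 11, lower members from 22 to 23, higher genes from 4904 to 5133 and lower genes from 3076 to 3192. The 26 given members had 337 values under the alternatives, not counting the one without a fold change threshold. Of these, 324 kept their direction and stayed called or not called. Without that threshold Prss42 and Prss44 ENSBGRG00000012894 were called higher as well. With Sertoli-centred scaling the sign turned for HTRA2 (−0.90), PRSS22 (−0.40), PRSS23 (−0.37), Prss42 (−1.48), PRSS50 (−1.33) and Prss44 ENSBGRG00000012807 (−2.03) and ENSBGRG00000012894 (−1.56), and Prss44 ENSBGRG00000012807 also turned with median-of-ratios scaling (−0.26). In that scaling each library is shifted to the level of Sertoli cell genes, which are higher in cattle-yak, so all fold changes move down by construction. The same 23 members were called lower with it and with median-of-ratios scaling.

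Depth limits members with few fragments, since PRSS54, PRSS58 ENSBGRG00000000668, TMPRSS2 and Tmprss13 rest on 1 to 3 fragments over the cattle-yak. Prss52 ENSBGRG00000008812 had 0. Other lower-called members also had few, among them PRSS51 with 4, Prss44 ENSBGRG00000012840 with 9 and KLK15 with 10. Groups of 3 animals give little information on spread within a group, and the groups also differ in county, in how the testes were obtained and in how close they are to the reference genome.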

Other observations

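Cell types that could add proteases of their own were at low or mixed levels. Mast cell genes other than KIT, which the spermatogonial list also holds, were CPA3, lower in cattle-yak at 0.106 against 4.70 FPKM, HDC, not called on the main scale, and FCER1A and MS4A2, untested and below 0.3 FPKM in every animal. The mast cell list with KIT, its most abundant gene, summed to 11.7, 14.2 and 14.7 FPKM in Y1, Y2 and Y3 and to 26.7, 24.1 and 31.9 in C1, C2 and C3. Neutrophil genes were lower in 1 of 3 tested (MPO), with sums of 12.9, 12.8 and 13.4 FPKM in the yak and 10.7, 10.2 and 10.2 in the cattle-yak, most of it CSF3R. The 1 tested blood gene, AHSP, was not called at −0.83 but was called lower with median-of-ratios scaling (−1.31), and ALAS2 was at 0 in all animals except Y2, at 0.0414 FPKM, with sums of 7.36, 8.29 and 4.11 FPKM in the yak and 3.12, 3.10 and 3.47 in the cattle-yak, led by AHSP. Genes of rete testis or epididymal epithelium were not called in 4 of 4, while with Sertoli-centred scaling all 4 were called lower. Their sums were 142, 163 and 137 FPKM in the yak and 154, 97.9 and 119 in the cattle-yak, most of it EPCAM. LCN8 was listed at 0 in all yak.

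Endothelial genes were higher in 3 of 6 and lower in 1 (VWF), summing to 37.2, 32.0 and 38.1 FPKM in the yak and 54.6, 59.5 and 41.5 in the cattle-yak, with VWF the most abundant in yak and CLDN5 in cattle-yak. Macrophage genes were higher in 3 of 6 and lower in 2, at sums of 115, 116 and 97.6 FPKM in the yak and 71.9, 94.7 and 90.7 in the cattle-yak. Within that list C1QA was higher, at 44.1 against 9.78 FPKM, and AIF1 lower, at 3.55 against 61.3. With median-of-ratios scaling 0 endothelial genes and 1 macrophage gene were called higher. The part of these cells in the levels of the proteases was not tested.

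A few other values stood out. ADAM3 varied among the yak, at 627, 233 and 684 FPKM from Y1 to Y3. The inhibitors SPINK4 and SPINK9 were lower in cattle-yak, with means of 2.44 against 91.0 and 0.117 against 15.5 FPKM. F2R, the thrombin receptor, had means of 51.6 FPKM for cattle-yak and 5.40 for yak; its log2 fold change of 3.06 was the largest of the substrates and receptors (adjusted p = 1.8e-06) and was 0.83 with Sertoli-centred scaling. XIAP, the partner of HTRA2, averaged 29.5 FPKM in cattle-yak and 6.55 in yak (2.02, adjusted p = 1.5e-06; −0.22 with Sertoli-centred scaling).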
